A study of Mus musculus with 12 samples.

Results

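A set of 8 genes that mark dendritic cells was followed through RNA-seq libraries of mouse alveolar macrophages, cells that live in the air spaces of the lung and were collected there by lavage. The genes were Clec9a, Xcr1, Flt3, Zbtb46, Itgae, Cd209a, Ccr7 and Fscn1, 8 of 23413 genes in the deposited table of counts, found there by symbol as known markers of dendritic cells. The libraries formed 6 groups of 2. Fresh cells came from Vdr knockout (KO) and wild-type (WT) mice at 10 weeks of age and from KO and WT mice at 4 weeks. WT cells were also cultured for 24 h in complete medium with 50 nM vitamin D3 (VD3) or with none. Vdr encodes the vitamin D receptor, the nuclear receptor through which vitamin D acts. The strain, the knockout allele, the age of the mice behind the cultured cells, any pooling of animals and any sort after lavage do not appear in the sources used here.

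Dendritic cells take up antigen in tissues, carry it to lymph nodes and present it to T cells. Conventional dendritic cells fall into a cDC1 type, which takes up dying cells and presents their antigens to cytotoxic T cells, and a cDC2 type, which presents mainly to helper T cells. A dendritic cell that matures leaves the tissue by following chemokine gradients and builds long actin protrusions on the way. In the airways such cells sit within and beneath the epithelium, close to the air spaces that lavage samples, and they are a minority there beside alveolar macrophages.

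Total counts ran from 10409572 (10-week KO replicate 2) to 23233674 (VD3 culture replicate 1), so 1 count was worth 0.0904 CPM (counts in proportion to the scaled library total) or less. Replicates differed by more than sampling noise in all 6 groups (chi-square of 10.4 to 55.9 per degree of freedom). The labels do not say that replicates were separate animals or cultures, so the p-values cover only the spread among libraries, part of which may be technical. At 10 weeks replicate 2 of each genotype was female by its Xist level (787 CPM in KO and 800.3 CPM in WT) and replicate 1 was not (0.926 CPM in KO and 0.689 CPM in WT), so those came from different animals. Vdr was still counted in the KO libraries, at 84.2 and 45.0 CPM at 10 weeks and 45.9 and 31.2 CPM at 4 weeks, against 79.6 and 126.9 CPM in WT at 10 weeks and 56.5 and 57.7 CPM in WT at 4 weeks. Its difference was not past the threshold at either age (edgeR adjusted p = 0.538 and 0.527), and the description codes of 10-week KO replicate 1 and 10-week WT replicate 2 name the other genotype. The libraries are therefore named by their genotype labels, and a direction between genotypes at 10 weeks rests on those labels. The labelled cell type showed in the markers: the 12 alveolar macrophage genes found in the table were counted in every library and summed to 11774 to 45842 CPM, led by Chi3l3.

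The summed level of the 8 dendritic cell markers was 19.5 and 20.3 CPM in 10-week KO and 44.7 and 54.5 CPM in 10-week WT, 9.63 and 11.3 CPM in 4-week KO and 55.5 and 22.7 CPM in 4-week WT. In culture it was 12.1 and 12.5 CPM with VD3 and 23.5 and 17.7 CPM without. The highest KO sum of either age lay below the lowest WT sum. Since these are bulk libraries, fewer dendritic cells and less of their RNA per cell cannot be told apart, nor can either be told from expression by the macrophages. The filter on low counts kept 7 members and left out Cd209a, which held 33 counts in all and 0 counts in 6 of 12 libraries.

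**Figure D1:**
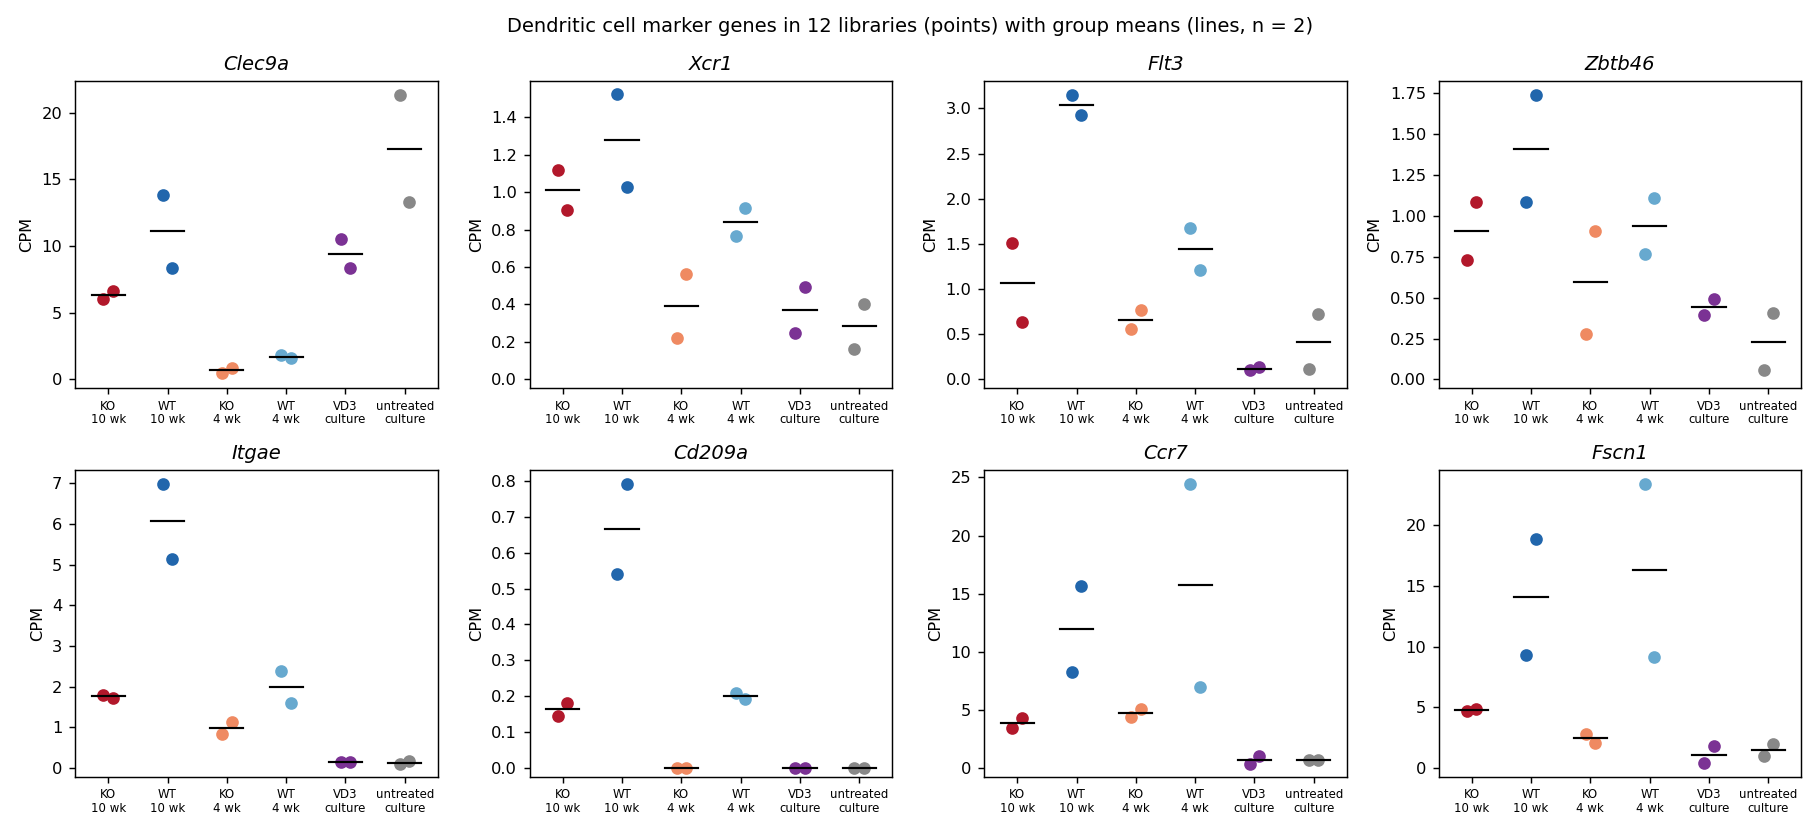
Level of each of the 8 markers in CPM (vertical axes, each starting at 0) in the 12 libraries, by group. Points are libraries and lines are means of 2. Clec9a is highest in untreated culture (21.3 and 13.3 CPM) and lowest in 4-week KO (0.498 and 0.841 CPM), whereas Ccr7 and Fscn1 are highest in fresh WT cells.

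Ccr7 and Fscn1 mark maturing, migrating dendritic cells. Ccr7 encodes the chemokine receptor that guides mature dendritic cells, and also naive T cells, to lymph nodes. It was at 3.46 and 4.34 CPM in 10-week KO and 8.27 and 15.7 CPM in 10-week WT, at 4.43 and 5.04 CPM in 4-week KO and 24.5 and 7.0 CPM in 4-week WT. Cultured cells held 0.344 and 1.05 CPM with VD3 and 0.711 and 0.729 CPM without. The groups thus fell into 3 tiers that did not overlap, fresh WT at the top, fresh KO in the middle and culture at the bottom. Within the top and bottom tiers the 2 groups overlapped, while in the middle tier 4-week KO lay just above 10-week KO.

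Fscn1 encodes fascin, the protein that bundles actin filaments in the protrusions of mature dendritic cells. It was at 4.68 and 4.88 CPM in 10-week KO and 9.31 and 18.8 CPM in 10-week WT. The 4-week KO libraries held 2.82 and 2.10 CPM of it and the 4-week WT libraries 23.4 and 9.13 CPM. Culture held 0.393 and 1.83 CPM with VD3 and 0.985 and 1.94 CPM without. The same 3 tiers appeared without overlap, with 10-week KO above 4-week KO in the middle one.

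The promoter of Fscn1 is shown because this gene had the largest fitted KO difference over both ages among the tested members and held more of the searched motifs than the other promoters at hand. The 300 bases, 250 before the RefSeq start site and 50 after it, lie at chr5:142960105-142960404 on the plus strand (RefSeq, GRCm38.p6), 61.7% of them G or C. Capitals mark, in order, the cAMP response element TGACGTCA and the TATA box TATAAA:
Fscn1: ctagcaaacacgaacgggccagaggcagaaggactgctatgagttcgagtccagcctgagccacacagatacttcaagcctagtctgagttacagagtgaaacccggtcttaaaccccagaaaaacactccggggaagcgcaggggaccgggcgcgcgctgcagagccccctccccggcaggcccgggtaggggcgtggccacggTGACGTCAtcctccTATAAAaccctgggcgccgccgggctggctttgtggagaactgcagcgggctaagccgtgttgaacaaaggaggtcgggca
The TATA box begins 31 bases before the start site and the cAMP response element 45 bases before it. Searched on both strands, TATAAA occurred in 13.6% of the 32851 mouse promoters of this length, and TGACGTCA in 1.79%. The core of the PU.1 site, GAGGAA, which 28.3% of promoters held, was not found in the Fscn1 window. These matches describe letters, not bound sites. The reference table held promoters for 6 of the 8 members and named none for Ccr7 and Itgae.

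Itgae encodes the integrin alpha chain CD103, which binds E-cadherin on epithelial cells and marks airway cDC1 cells as well as T cells lodged in epithelium. It was at 1.80 and 1.72 CPM in 10-week KO and 6.99 and 5.14 CPM in 10-week WT, and at 0.830 and 1.12 CPM in 4-week KO and 2.38 and 1.59 CPM in 4-week WT. Culture held 0.148 and 0.140 CPM with VD3 and 0.109 and 0.162 CPM without, which was 2 or 3 counts a library. Fresh 10-week WT stood apart at the top and both culture groups at the bottom, while 4-week WT overlapped 10-week KO and lay above 4-week KO.

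Clec9a and Xcr1 define the cDC1 type. Clec9a encodes a receptor for actin exposed on dead cells, and Xcr1 the receptor for the chemokine Xcl1. Clec9a was at 6.0 and 6.60 CPM in 10-week KO and 13.8 and 8.39 CPM in 10-week WT. The 4-week libraries held 0.498 and 0.841 CPM in KO and 1.82 and 1.59 CPM in WT. In culture it was at 10.5 and 8.36 CPM with VD3 and 21.3 and 13.3 CPM without, so that unlike Ccr7, Fscn1 and Itgae it was as high in culture as in any fresh group. The order of means was untreated culture, 10-week WT, VD3 culture, 10-week KO, 4-week WT and 4-week KO. The first 3 overlapped their neighbours and each of the last 3 groups lay clear of the one above it.

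Xcr1 did not share that pattern. It was at 1.12 and 0.904 CPM in 10-week KO and 1.53 and 1.03 CPM in 10-week WT, and at 0.221 and 0.560 CPM in 4-week KO and 0.769 and 0.917 CPM in 4-week WT. Culture held 0.246 and 0.492 CPM with VD3 and 0.164 and 0.405 CPM without. The 2 groups of 10 weeks and 4-week WT overlapped in turn, and 4-week KO overlapped both culture groups.

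The promoters of this pair are shown side by side because both genes mark the same cell type yet differed in culture. They lie at chr6:129408612-129408911 on the plus strand (Clec9a) and chr9:123861980-123862279 on the minus strand (Xcr1), and hold 37% and 40% G or C. Capitals mark the 1 motif found in each, TATAAA read on the opposite strand:
Clec9a: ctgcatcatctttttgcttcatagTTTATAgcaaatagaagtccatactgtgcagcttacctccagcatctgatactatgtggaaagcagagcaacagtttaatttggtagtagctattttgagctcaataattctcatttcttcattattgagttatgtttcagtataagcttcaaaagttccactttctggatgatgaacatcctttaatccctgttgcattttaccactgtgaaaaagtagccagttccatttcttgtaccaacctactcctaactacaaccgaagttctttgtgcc
Xcr1: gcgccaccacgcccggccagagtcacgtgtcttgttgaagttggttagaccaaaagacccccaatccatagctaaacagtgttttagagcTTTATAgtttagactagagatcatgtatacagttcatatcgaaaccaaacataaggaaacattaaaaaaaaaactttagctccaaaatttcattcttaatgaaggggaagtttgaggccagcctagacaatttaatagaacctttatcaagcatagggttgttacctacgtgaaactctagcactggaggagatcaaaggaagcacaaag
The match begins 226 bases before the start site in Clec9a and 160 before it in Xcr1. Cd209a held the same motif on the opposite strand 184 bases before its start. The windows of Flt3 and Zbtb46 held none of the 3 motifs, and no other motif was found in Clec9a, Xcr1 or Cd209a.

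Flt3 and Zbtb46 are shared by conventional dendritic cells. Flt3 encodes the receptor for the growth factor on which dendritic cell development depends, and Zbtb46 a transcription factor restricted, among immune cells, largely to conventional dendritic cells. Flt3 was at 1.51 and 0.633 CPM in 10-week KO and 3.15 and 2.93 CPM in 10-week WT, and at 0.553 and 0.771 CPM in 4-week KO and 1.68 and 1.21 CPM in 4-week WT. Culture held 0.0984 and 0.140 CPM with VD3 and 0.109 and 0.729 CPM without. Fresh 10-week WT stood clear of all the other groups, and the groups below it overlapped their neighbours in order of mean.

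Zbtb46 was low throughout, at 0.731 and 1.08 CPM in 10-week KO and 1.08 and 1.74 CPM in 10-week WT, and at 0.277 and 0.911 CPM in 4-week KO and 0.769 and 1.11 CPM in 4-week WT. Culture held 0.393 and 0.492 CPM with VD3 and 0.0547 and 0.405 CPM without. Every group overlapped the next in order of mean.

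Cd209a encodes a sugar-binding receptor of cDC2 and monocyte-derived dendritic cells. It was at 0.146 and 0.181 CPM in 10-week KO (5 counts) and 0.542 and 0.791 CPM in 10-week WT (21 counts). At 4 weeks it held 0 counts in both KO libraries and 0.210 and 0.193 CPM in WT (7 counts), and it held 0 counts in all 4 cultured libraries. Each fresh WT group lay above the KO group of its age.

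Taking the 6 groups together, 5 of the 7 tested members varied by group beyond the spread between replicates, a share not far from the background of 58.2% of all 12748 genes tested. By edgeR's F test over all groups, with Benjamini-Hochberg adjustment over these genes, the adjusted p was 5.61e-06 for Clec9a, 9.77e-06 for Itgae and 0.000203 for Ccr7. It was 0.000387 for Fscn1 and 0.00357 for Flt3. Xcr1 (edgeR adjusted p = 0.0543) and Zbtb46 (edgeR adjusted p = 0.121) did not pass.

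**Figure D2:**
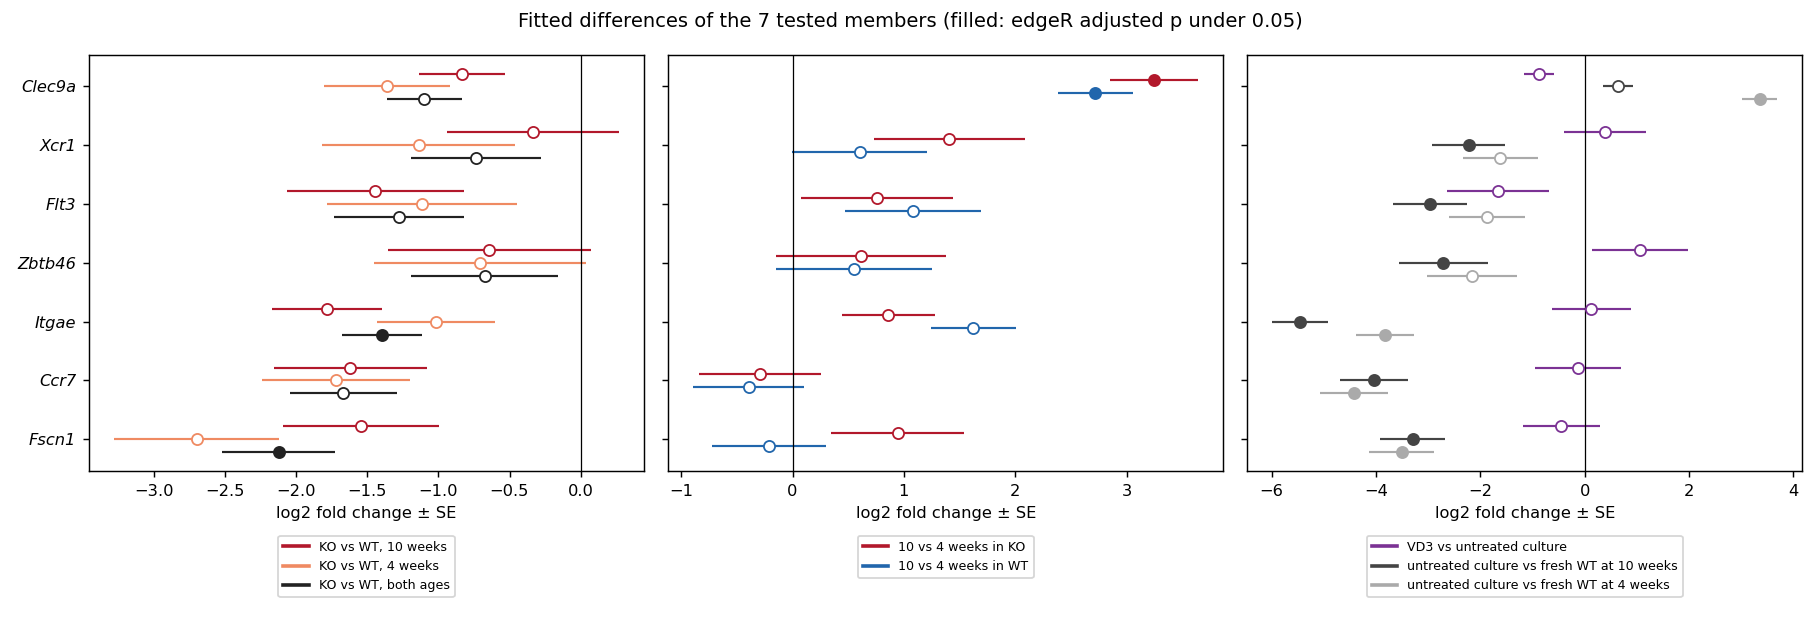
Fitted log2 fold change (horizontal axes) ± SE of the 7 tested members. Panels show KO against WT, 10 against 4 weeks, and culture (VD3 against untreated, and untreated against fresh WT of each age). Filled points passed an edgeR adjusted p of 0.05, among them Fscn1 (-2.12) and Itgae (-1.40) for KO over both ages and Clec9a for age in both genotypes (3.25 in KO and 2.72 in WT).

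The first question of the design was whether loss of the vitamin D receptor altered the cells, and for these markers every fitted difference pointed down in KO. Over both ages, with 4 libraries of each genotype, Fscn1 fell to a mean of 3.62 ± 1.37 CPM in KO, against 15.2 ± 7.12 CPM in WT (SD, n = 4 each). Its log2 fold change was -2.12 ± 0.40 (SE), with an edgeR adjusted p of 0.0346. Itgae fell to 1.37 ± 0.470 CPM in KO, against 4.03 ± 2.50 CPM in WT, or log2 -1.40 ± 0.28 (edgeR adjusted p = 0.0430). The 2 members that fell make 2 of 7 tested, where 0.384% of all genes fell and 0.996% changed in either direction. The highest KO library of Fscn1 lay below the lowest WT library, while the KO and WT libraries of Itgae overlapped across ages.

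Ccr7 did not pass, at 4.32 ± 0.651 CPM in KO and 13.8 ± 8.04 CPM in WT (log2 -1.67 ± 0.37, edgeR adjusted p = 0.0636), although its 8 libraries did not overlap. Clec9a was at log2 -1.10 ± 0.27 (edgeR adjusted p = 0.0856), Flt3 at -1.28 ± 0.46, Xcr1 at -0.74 ± 0.45 and Zbtb46 at -0.67 ± 0.52. The median over the 7 was -1.28, against -0.01 over all genes. Of the 8 members 3 had every KO library below every WT library (Fscn1, Ccr7 and Cd209a), where 2.28% of genes tested did. For Cd209a the summed counts were 5 in KO and 28 in WT, a depth-scaled ratio of 0.190 with an exact 95% interval of 0.0573 to 0.498, which covers counting error only. These calls rested on few libraries. Fscn1 passed in 1 of 8 fits that left out a library, the one without 4-week WT replicate 2 (edgeR adjusted p from 0.0246 to 0.157), and Itgae passed in 0 of 8 (edgeR adjusted p from 0.0594 to 0.200). Ccr7 passed without 4-week WT replicate 2 (edgeR adjusted p = 0.0147), and with the 10-week libraries of conflicting labels exchanged the log2 fold changes of Fscn1 and Itgae were -0.97 and -0.68 (edgeR adjusted p = 0.637 and 0.746). Without both female libraries, replicate 2 of each genotype at 10 weeks, Fscn1 was at log2 -1.85 and Itgae at -1.48, and neither passed (edgeR adjusted p = 0.239 for each).

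At 10 weeks by itself 0 of 7 members passed, where 0.110% of all genes did. An unadjusted p under 0.05 was seen for 5, but the share of all genes with such a p was not counted. That count therefore has no background. Itgae had the smallest p, at 1.76 ± 0.0616 CPM in KO and 6.07 ± 1.31 CPM in WT (SD, n = 2 each), or log2 -1.78 ± 0.39 (edgeR adjusted p = 0.134). Ccr7 was at log2 -1.62 ± 0.54, Fscn1 at -1.55 ± 0.55, Flt3 at -1.44 ± 0.62 and Clec9a at -0.83 ± 0.30 (edgeR adjusted p = 0.320, 0.351, 0.480 and 0.362). Zbtb46 was at -0.64 ± 0.71 and Xcr1 at -0.33 ± 0.61, each within its error of 0. Of the 8 members 6 had both KO libraries below both WT libraries, where 20.9% of genes tested did. The title numbers of the 10-week libraries fall in 2 series that go with replicate and with sex. Within each series the KO library was lower for all 8 members, but the share of all genes of which this held was not counted. Each series holds 1 library of each genotype, and these are the libraries of the fit above, so the ratios are no second test. For Itgae the log2 ratio of KO to WT was -1.95 in replicate 1 and -1.58 in replicate 2, for Fscn1 -0.99 and -1.95, for Ccr7 -1.26 and -1.85, and for Clec9a -1.21 and -0.35. No fit that left out a library brought a member past the threshold at this age.

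At 4 weeks 0 of 7 members passed either, where 0.667% of all genes did. An unadjusted p under 0.05 was seen for 4, again without a counted share of all genes to set it beside. Fscn1 came closest, at 2.46 ± 0.509 CPM in KO and 16.3 ± 10.1 CPM in WT (SD, n = 2 each), or log2 -2.70 ± 0.58 (edgeR adjusted p = 0.0647). The WT libraries differed widely, and without WT replicate 2 it passed (edgeR adjusted p = 0.0493). Ccr7 was at log2 -1.72 ± 0.52, Clec9a at -1.36 ± 0.44 and Itgae at -1.02 ± 0.41 (edgeR adjusted p = 0.208, 0.237 and 0.358). Xcr1 (-1.14 ± 0.68), Flt3 (-1.12 ± 0.67) and Zbtb46 (-0.71 ± 0.75) had wider errors for their size. Of the 8 members 7, all but Zbtb46, had both KO libraries below both WT libraries, where 24.6% of genes tested did. All 4 libraries of this age carry titles of 1 series. The KO difference itself was not found to depend on age: 0 of 7 members had an interaction past the threshold, where 0.188% of all genes did, and 0 had an unadjusted p under 0.05. For Fscn1 the 10-week minus the 4-week difference was log2 1.15 ± 0.79 and for Itgae -0.77 ± 0.57, so errors of that size leave room for differences in either direction.

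Other dendritic cell genes were followed in 5 lists, to be read against the 0.384% of all genes that fell over both ages. The share of all genes with lower values was not counted. Genes shared by conventional dendritic cells had lower values over both ages in KO for 8 of 9 tested members (median log2 -1.30), with 0 past the threshold. Among them were Kit, the stem cell factor receptor (0.683 and 0.542 CPM in 10-week KO, 2.46 and 3.96 CPM in 10-week WT), and P2ry10, a lysophospholipid receptor gene (log2 -1.38 ± 0.40, edgeR adjusted p = 0.147). The 2 abundant members of that list, Itgax and Ly75, which alveolar macrophages also express, were at log2 -0.19 ± 0.10 and 0.29 ± 0.13. Maturation genes had lower values for 15 of 18 members, of which 1 fell: Ccl22, a chemokine of mature dendritic cells and activated macrophages. Ccl22 was at 11.6 and 8.59 CPM in 10-week KO and 24.6 and 30.8 CPM in 10-week WT, and at 9.96 and 9.67 CPM in 4-week KO and 46.7 and 14.2 CPM in 4-week WT (log2 -1.52 ± 0.29, edgeR adjusted p = 0.0354). The calcium channel subunit gene Cacnb3 was at log2 -1.91 ± 0.43 and Traf1, an adaptor of TNF receptors, at -1.79 ± 0.50 (edgeR adjusted p = 0.0742 and 0.139). The 15 include Il4i1, which held 0 counts in one group of each genotype and whose fitted value is therefore no measure of size.

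Lists of single dendritic cell types had medians closer to 0. They hold genes abundant in these macrophage libraries, so their medians are not read as a measure of dendritic cells. Averaged over all 12 libraries, Wdfy4 was at 422 CPM, Id2 at 245 CPM and Cd24a at 220 CPM in the cDC1 list. Sirpa was at 1943 CPM in the cDC2 list and Bst2 at 32.9 CPM in the plasmacytoid list. The other cDC1 genes were lower for 6 of 9 tested members (median log2 -0.01, 0 past the threshold). In this list Irf8, which macrophages also use, was at log2 -0.21 ± 0.10 and the cDC1 transcription factor gene Batf3 at 0.05 ± 0.28. For Batf3 that value averages opposite ones, log2 0.84 ± 0.41 at 10 weeks and -0.73 ± 0.39 at 4 weeks, neither past the threshold. The other cDC2 genes were lower for 5 of 7 (median -0.22, 0 past the threshold). Plasmacytoid dendritic cell genes were lower for 5 of 6 (median -0.22, 0 past the threshold). The median over all genes was -0.01.

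**Figure D3:**
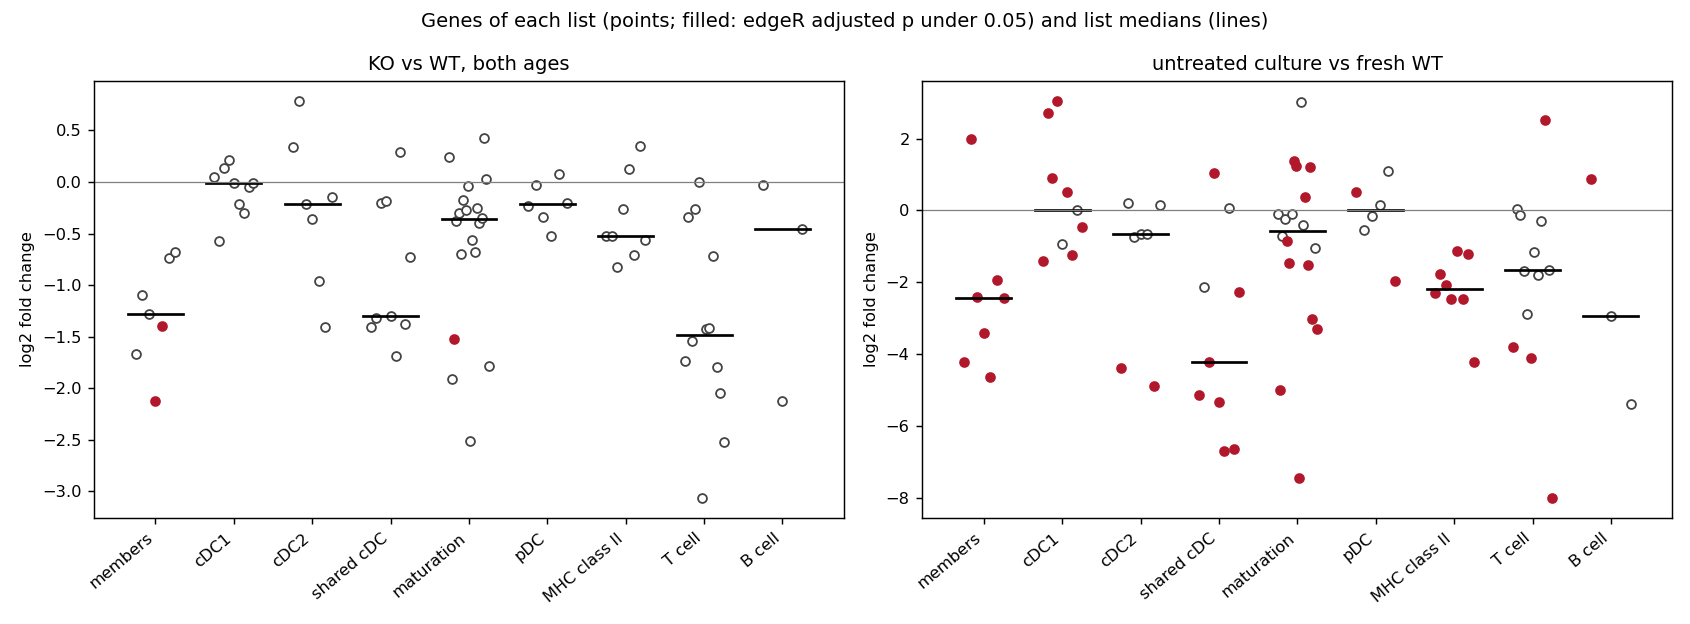
Fitted log2 fold change of every tested gene (points) in the 8 markers and 8 other lists, with list medians (lines), for KO against WT over both ages and untreated culture against fresh WT. Filled points passed an edgeR adjusted p of 0.05. For KO the medians of the 8 markers (-1.28), the shared conventional dendritic cell genes (-1.30) and the T cell genes (-1.49) lie well below those of the cDC1 and plasmacytoid lists.

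T cells also express Ccr7 and Itgae, and their markers leaned the same way. Of 14 listed T cell genes 12 were tested, and 11 had lower values in KO over both ages (median log2 -1.49, 0 past the threshold). At 10 weeks 12 of 12 did (median -2.29, 0 past the threshold). At 4 weeks 11 of 12 did and Cd2 fell (log2 -0.55 ± 0.11, edgeR adjusted p = 0.0496), where 0.667% of all genes changed in either direction. Cd2 averaged 132 CPM in 4-week KO and 193 CPM in 4-week WT, but also 221 CPM in untreated culture. There Cd3d, Cd3e and Cd3g summed to only 0.438 and 0.162 CPM, so the level of Cd2 is not read as a measure of T cells. Cd2 and Il7r, which make up most of the list's signal, aside, the other 12 genes summed to 4.19 and 3.25 CPM in 10-week KO and 9.85 and 17.3 CPM in 10-week WT. At 4 weeks they summed to 5.37 and 5.75 CPM in KO and 13.97 and 5.75 CPM in WT. Over all 14 the sums, which were mostly Cd2, were 207 to 239 CPM in 10-week KO and 249 to 270.4 CPM in 10-week WT. The 4-week sums were 135 to 145 CPM in KO and 190.4 to 226 CPM in WT. The defining genes Cd3d, Cd3e and Cd3g summed to 0.975 and 0.542 CPM in 10-week KO and 1.67 and 3.25 CPM in 10-week WT, and to 1.33 and 1.47 CPM in 4-week KO and 2.03 and 1.45 CPM in 4-week WT. The part of T cells in the KO differences of Ccr7 and Itgae was not tested.

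Markers of some other cells moved with the KO groups as well, to be read against the 0.384% of all genes that fell over both ages. Of 4 tested red cell genes all had lower values in KO over both ages and 2 fell, the beta globin gene Hbb-b1 (log2 -2.02 ± 0.32, edgeR adjusted p = 0.0236) and Alas2, the first enzyme of haem synthesis in red cells (log2 -1.56 ± 0.32, edgeR adjusted p = 0.0472). The 5 red cell genes in the table summed to 31.6 and 17.2 CPM in 10-week KO and 56.9 and 51.7 CPM in 10-week WT, and to 257.9 and 562.1 CPM in 4-week KO and 2564 and 1039 CPM in 4-week WT. The KO sums lay below the WT sums at each age, as for the dendritic cell markers. Of 10 genes of monocytes and interstitial macrophages 7 had lower values and C1qb, a complement gene, fell (log2 -1.84 ± 0.35, edgeR adjusted p = 0.0379). That list summed to 348 to 354 CPM in 10-week KO and 368 to 390.8 CPM in 10-week WT, and to 276 to 297 CPM in 4-week KO and 288 to 341 CPM in 4-week WT. Over both ages 3 of 3 tested B cell genes, 2 of 2 natural killer cell genes and 6 of 8 MHC class II genes had lower values. So did 3 of 6 neutrophil, 4 of 10 epithelial and 4 of 12 alveolar macrophage genes, with 0 past the threshold over both ages in each list. MHC class II values were higher in KO for 7 of 8 genes at 10 weeks (median log2 0.39) and lower for 7 of 8 at 4 weeks (median log2 -0.99). In single ages the epithelial gene Ager rose in KO at 10 weeks (log2 2.37 ± 0.30, edgeR adjusted p = 0.0147). The alveolar macrophage gene Marco rose in KO at 4 weeks (log2 2.25 ± 0.31, edgeR adjusted p = 0.00674). The part of these cells in the marker differences was not tested.

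The second axis of the design was age, and here 1 member stood out in both genotypes. Clec9a rose to 6.30 ± 0.424 CPM in 10-week KO, against 0.669 ± 0.242 CPM in 4-week KO (SD, n = 2 each), or log2 3.25 ± 0.40 (edgeR adjusted p = 0.00083). In WT it rose to 11.1 ± 3.85 CPM at 10 weeks, against 1.70 ± 0.158 CPM at 4 weeks, or log2 2.72 ± 0.34 (edgeR adjusted p = 0.00297). It was the 1 of 7 members to pass in each genotype, where 4.89% of all genes rose in KO and 1.4% in WT. Both calls held in each of the 4 fits that left out a library, with an edgeR adjusted p of at most 0.0162 in KO and 0.0390 in WT. The title numbers of 10-week replicate 1 belong to a series that holds no 4-week library. Within the other series Clec9a was at 6.60 CPM in 10-week KO against a mean of 0.669 CPM in 4-week KO, and at 8.39 CPM in 10-week WT against 1.70 CPM in 4-week WT. Those 10-week libraries are female and the 4-week libraries are not, so sex and age cannot be told apart within that series.

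Genes of other lists changed with age too, to be read against the 4.89% of all genes that rose in KO and the 1.4% that rose in WT. Of 8 MHC class II genes, which present antigen on dendritic cells and on other cells, 6 rose in KO and 5 in WT, with H2-Aa at log2 6.17 ± 0.72 in KO and 4.27 ± 0.65 in WT. The epithelial gene Epcam rose by log2 3.74 ± 0.38 in KO and 2.52 ± 0.36 in WT. Red cell genes fell for 3 of 4 in each genotype, where 4.83% of all genes fell in KO and 0.706% in WT. Of the dendritic cell lists, 2 of 9 other cDC1 genes (Cd24a and Id2), 2 of 9 shared genes (Itgax and H2-DMb2), 2 of 18 maturation genes (Birc3 and Socs2) and 1 of 6 plasmacytoid genes (Pacsin1) rose in KO. Ebi3, a cytokine subunit gene of the maturation list, fell in both genotypes, at log2 -2.80 ± 0.48 in KO and -2.40 ± 0.46 in WT. In WT no other gene of the 5 dendritic cell lists passed. Their part in the Clec9a difference was not tested.

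The remaining members did not pass for age. Itgae came closest in WT, at 6.07 ± 1.31 CPM at 10 weeks and 1.98 ± 0.553 CPM at 4 weeks (SD, n = 2 each; log2 1.63 ± 0.38, edgeR adjusted p = 0.0521), with both 10-week libraries above both 4-week libraries. In KO it was at log2 0.86 ± 0.42 (edgeR adjusted p = 0.221). In KO, Flt3 was at log2 0.76 ± 0.68, Xcr1 at 1.41 ± 0.68 and Zbtb46 at 0.62 ± 0.76, and in WT Flt3 was at 1.08 ± 0.61, Xcr1 at 0.60 ± 0.61 and Zbtb46 at 0.55 ± 0.70. Of the migratory pair, Ccr7 was at -0.29 ± 0.55 and Fscn1 at 0.94 ± 0.59 in KO, and Ccr7 was at -0.39 ± 0.50 and Fscn1 at -0.21 ± 0.51 in WT. The signs of Ccr7 and Fscn1 in WT turned when 4-week WT replicate 1 was left out (log2 0.76 and 0.61). In each genotype 5 of 8 members had both 10-week libraries above both 4-week libraries, where 29.4% of genes tested did in KO and 27.8% in WT.

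Counts of Clec9a have to be read with its neighbour. In the GENCODE M21 annotation 184 of the 3293 exonic bases of Clec9a (5.59%) also belong, on the same strand, to Clec1b, a receptor gene of the same family that lies beside it. The sources used here name neither the authors' annotation nor how shared reads were split, so the level of Clec9a is uncertain. The 5.59% is a share of bases and does not bound the share of its counts, since Clec1b held more counts in every library but 4-week WT replicate 2, where the counts were equal. Clec1b was counted at 28.7 and 21.96 CPM in 10-week KO and 58.5 and 29.7 CPM in 10-week WT, and at 1.33 and 0.981 CPM in 4-week KO and 6.08 and 1.59 CPM in 4-week WT. In culture it was at 29.9 and 19.1 CPM with VD3 and 48.0 and 28.9 CPM without. Clec1b, too, rose with age, by log2 4.44 ± 0.60 in KO and 3.61 ± 0.51 in WT (edgeR adjusted p = 0.00156 and 0.00492). The ratio of Clec9a to Clec1b counts was not constant, at 0.209 to 0.300 in 10-week KO and 0.237 to 0.283 in 10-week WT, 0.375 to 0.857 in 4-week KO and 0.299 to 1 in 4-week WT. It was 0.351 to 0.438 in VD3 culture and 0.445 to 0.459 in untreated culture. Whether shared reads carry part of the Clec9a pattern was not tested. No exonic base of the other 7 members was shared with another gene, though Itgae spans Haspin on the opposite strand, and the counting strand is unknown.

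**Figure D4:**
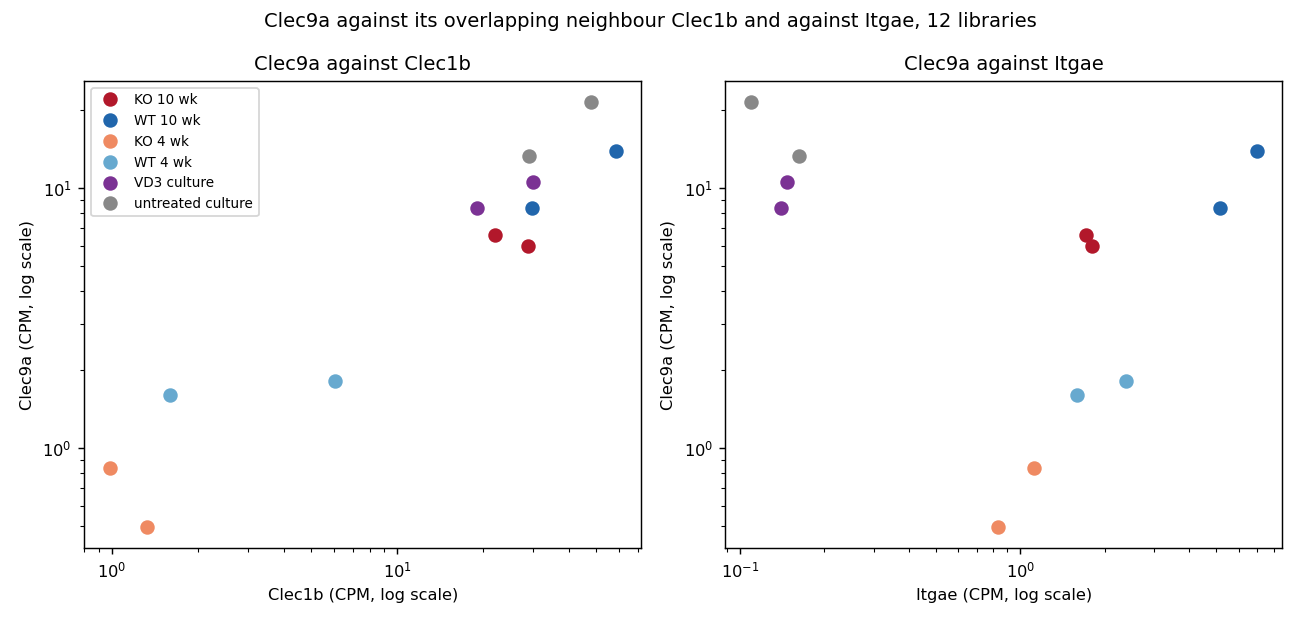
Clec9a level in CPM (vertical axes, log scale) against its neighbour Clec1b (left) and against Itgae (right, both horizontal axes in CPM on a log scale), 1 point per library, coloured by group. Clec9a and Clec1b rise together over all 12 libraries (Pearson's r of 0.96 on log2 CPM), whereas the 4 cultured libraries hold 8.36 to 21.3 CPM of Clec9a at 0.109 to 0.162 CPM of Itgae, apart from the fresh ones.

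Untreated culture was set against fresh WT cells to place the cultured cells. The mice behind them have no stated age, so culture cannot be told apart from age, collection and handling. The fresh WT libraries are also those of the KO comparisons, so the comparisons are not independent. Against fresh WT of both ages 6 of 7 members fell and 1 rose, where 22.3% of all genes fell and 23.5% rose. Itgae fell to 0.136 ± 0.0371 CPM in culture, against 4.03 ± 2.50 CPM in fresh WT (SD, n = 2 and 4), or log2 -4.64 ± 0.51 (edgeR adjusted p = 1.93e-05). Ccr7 fell with a log2 fold change of -4.23 ± 0.62 and Fscn1 with -3.40 ± 0.59 (edgeR adjusted p = 0.000177 and 0.000596). Itgae, Ccr7 and Fscn1 passed in each of the 6 fits that left out a library. Against 10-week WT alone 6 of 7 members fell (background 21.2%), and against 4-week WT alone Itgae, Ccr7 and Fscn1, 3 of 7, fell (19.5%) and 1 rose (20.1%).

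The fall of the other 3 was less secure. Flt3 fell with log2 -2.42 ± 0.66, Zbtb46 with -2.43 ± 0.79 and Xcr1 with -1.92 ± 0.65 (edgeR adjusted p = 0.0108, 0.0252 and 0.0302), on 11, 6 and 8 counts over both cultured libraries. Without untreated culture replicate 1 none of these 3 passed (log2 -1.51, -1.49 and -1.35, edgeR adjusted p = 0.112, 0.232 and 0.259). Without untreated culture replicate 2 the log2 fold changes of Flt3 and Zbtb46 were -4.16 and -4.21, and Xcr1 did not pass (edgeR adjusted p = 0.0602). Xcr1 was also lost without 10-week WT replicate 1 or 4-week WT replicate 2 (edgeR adjusted p = 0.0925 and 0.0633), and Zbtb46 without 10-week WT replicate 2 or 4-week WT replicate 2 (edgeR adjusted p = 0.0687 and 0.0582). Cd209a had 0 counts in culture and 28 in fresh WT. The exact 95% interval of the depth-scaled ratio begins at 3.20-fold lower, and it covers counting error only. All 7 of these members, Cd209a included, had both cultured libraries below all 4 fresh WT libraries, where 27.9% of genes tested did.

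Clec9a went the other way. It averaged 17.3 ± 5.70 CPM in untreated culture and 6.41 ± 5.87 CPM in fresh WT (SD, n = 2 and 4), or log2 1.99 ± 0.25 (edgeR adjusted p = 5.93e-05). That value rested on the 4-week libraries, against which the log2 fold change was 3.35 ± 0.34 (edgeR adjusted p = 1.40e-05). Against 10-week WT it was 0.63 ± 0.29 (edgeR adjusted p = 0.0985), and the groups overlapped. Clec1b likewise had a log2 fold change of 3.41 ± 0.51 against 4-week WT and -0.20 ± 0.42 against 10-week WT.

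Among the other dendritic cell lists, to be read against the 22.3% of all genes that fell and the 23.5% that rose, 6 of 9 tested shared conventional dendritic cell genes fell in untreated culture and 1 rose, the abundant integrin gene Itgax (log2 1.05 ± 0.11). Of 18 maturation genes 7 fell and 4 rose. Il12b, a subunit gene of interleukin 12, held 0 counts in both cultured libraries. Cacnb3 had a log2 fold change of -5.01 ± 0.77 and Traf1 of -3.30 ± 0.76, and among those that rose were Ebi3 (1.39 ± 0.35) and Gadd45b (1.23 ± 0.26). Of 9 other cDC1 genes 4 rose, led by Id2 (3.05 ± 0.12) and Cadm1 (2.71 ± 0.45), and 3 fell, Batf3 (-1.41 ± 0.39), Snx22 (-1.23 ± 0.36) and Wdfy4 (-0.46 ± 0.12). Of 7 other cDC2 genes the chemokine gene Ccl17 (-4.38 ± 0.83) and Mgl2 fell. Of 6 plasmacytoid genes Bst2 rose (0.52 ± 0.15) and Spib fell (-1.97 ± 0.66). The 12 T cell genes other than Cd2 and Il7r summed to 3.67 and 4.13 CPM in untreated culture, against 9.85 and 17.3 CPM in 10-week WT and 13.97 and 5.75 CPM in 4-week WT. Genes of further cell types also fell in untreated culture: 8 of 8 MHC class II genes, 6 of 10 epithelial genes, 3 of 4 red cell genes, 4 of 6 neutrophil genes and 7 of 12 alveolar macrophage genes, while 2 neutrophil and 2 alveolar macrophage genes rose. Epcam was at log2 -4.23 ± 0.41, Hbb-b1 held 0 counts in culture, and the alveolar macrophage gene Car4 was at -8.91 ± 0.23. The part of these cells in the falls of the markers was not tested.

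The last comparison asked what 50 nM VD3 did in culture, against the untreated libraries used above, and 0 of 7 members passed, where 10.6% of all genes did. Clec9a had the smallest p of the 7 (0.0112 by edgeR, unadjusted). It was at 9.44 ± 1.53 CPM with VD3 and 17.3 ± 5.70 CPM without (SD, n = 2 each), or log2 -0.88 ± 0.29 (edgeR adjusted p = 0.0817). Both VD3 libraries lay below both untreated ones, the only member of which this held, where 24.7% of genes tested did. Within the 2 series of title numbers the log2 ratio was -1.02 and -0.67. Without untreated replicate 2 the log2 fold change was -1.17 and it passed (edgeR adjusted p = 0.0405). The other 6 had wider errors. Ccr7 was at log2 -0.13 ± 0.83, Fscn1 at -0.45 ± 0.74, Itgae at 0.13 ± 0.76, Xcr1 at 0.39 ± 0.78, Zbtb46 at 1.06 ± 0.92 and Flt3 at -1.66 ± 0.97. Errors of that size cover both a fall and a rise of more than 2-fold for Ccr7, Fscn1, Itgae and Xcr1 within 2 SE. A 2-fold VD3 effect on these could therefore not be told from none at this depth and with 2 libraries a group.

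Single genes of the other lists changed with VD3. Irf4, a transcription factor gene of cDC2 cells and of activated macrophages, rose to 61.9 CPM with VD3 against 4.75 CPM without (log2 3.68 ± 0.44, edgeR adjusted p = 0.000321). Cd24a rose by log2 2.05 ± 0.22 (edgeR adjusted p = 0.000129), the stress gene Gadd45b by 1.53 ± 0.29 (edgeR adjusted p = 0.00574) and Itgax by 0.49 ± 0.14 (edgeR adjusted p = 0.0427). Pdcd1lg2, which encodes the inhibitory ligand PD-L2, fell with log2 -1.08 ± 0.24 (edgeR adjusted p = 0.0138), Id2 with -0.86 ± 0.14 (edgeR adjusted p = 0.00244), Tlr3 with -0.70 ± 0.20 (edgeR adjusted p = 0.0421) and Sirpa with -0.42 ± 0.10 (edgeR adjusted p = 0.0212). These were 3 of 9 cDC1, 2 of 7 cDC2, 1 of 9 shared, 2 of 18 maturation and 0 of 6 plasmacytoid genes tested, beside the 10.6% of all genes that changed, and nothing particular to the lists is read from them.

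How the members varied together is given as a description over the 12 libraries, which share groups and depth, so no p is attached. Ccr7 and Fscn1 had the highest Pearson correlation of log2 CPM of any pair over 12 libraries, 0.94, and 0.89 over the 8 fresh ones. Flt3 and Itgae followed at 0.92 over 12 libraries and were the highest pair over the fresh ones, at 0.93. Clec9a correlated with Xcr1 at 0.02 over 12 libraries and at 0.88 over the 8 fresh ones, and with Itgae at -0.24 and 0.84. Clec9a and Ccr7 were at -0.48 over 12 and 0.14 over the fresh libraries.

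Among 10514 tested genes of at least 1 CPM on average, the genes most like each member were found by the same measure over 12 libraries. Clec9a was closest to Fbxo28 (0.98), Clec1b (0.96) and Plscr4 (0.95), Itgae to Plekhg3, P2ry10 and Pnpla6 (0.98, 0.97 and 0.97), and Ccr7 to Ano8, Slc27a3 and Efnb1 (0.975, 0.974 and 0.972). Fscn1 was closest to Traf1 (0.96), Bivm (0.95) and Efnb1 (0.95), and Flt3 to Nr4a3, Lpar4 and Banp (0.955, 0.949 and 0.946). Xcr1 was closest to Klhl41 (0.94), Ftx (0.925) and Ppp2r5b (0.917), and Zbtb46 to Sult2b1 (0.916), Mknk1 (0.90) and Gnptg (0.887). P2ry10 and Traf1 belong to the lists of shared and maturation genes above, Efnb1 was close to both Ccr7 and Fscn1, and Clec1b is the overlapping neighbour of Clec9a.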

How the data were processed

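Raw counts by gene were deposited by the authors for 12 libraries of lavaged alveolar macrophages. Per the labels' protocols, RNA came off RNeasy Micro columns and a KAPA mRNA kit made the libraries; per the submitters' processing notes, TopHat2 and edgeR were used with the mm9 build. The sources used here do not give the counting tool, annotation, strand setting or versions. A second deposited table, of log2 values, was not used.

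Of all 23413 genes the filter by expression (minimum count 10, minimum total 15) left 12748 genes. These entered 1 edgeR 4.0.16 quasi-likelihood fit (R 4.3.3) with TMM scaling and a coefficient for each of the 6 groups. The threshold was a Benjamini-Hochberg adjusted p of 0.05 over these genes, a call "rose" or "fell" means passing it, and SE is the fold change divided by the root of F. CPM are counts over TMM-scaled totals. Libraries were grouped by their labels, and Poisson intervals cover counting error only. Alternatives included DESeq2 1.42.0, other filters, a replicate block, each library left out and 2 conflicting labels exchanged. The rule for named genes took all 8 markers, Vdr, up to 4 passing genes and the most abundant genes of each list, and the 3 genes most like each marker. Not every gene it allows is given, and passing genes of other cell types were named after their values were seen. Members and lists were chosen with earlier results of these data known. No column of unknown origin was used. Promoters are from RefSeq on GRCm38.p6 and exon overlaps from GENCODE M21, so no coordinate is set beside the mm9 counts.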

Additional observations from a re-analysis of the deposited data

How the results depend on the processing

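Counts of members past the threshold changed with the processing as follows. With DESeq2, 2 members passed for KO at 4 weeks, 4 over both ages and 2 for age in WT. Of all 12748 genes 261, 369 and 676 passed in these fits, against 85, 127 and 269 in the main fit. With no filter on low counts, 4 passed for KO at 10 weeks, 3 at 4 weeks, 4 over both ages, 2 for age in KO, 2 for age in WT and 1 for VD3. Calls over all genes rose as well in that fit, to 503, 690, 791, 2059, 1223 and 1989 of 17620 genes. The main fit passed 14, 85, 127, 1240, 269 and 1356 genes in the same order. A filter of 5 CPM in 2 libraries kept only Clec9a, Itgae, Ccr7 and Fscn1. With it 2 of these 4 passed for age in WT and all 4 for culture, where 285 and 5348 of 10227 genes did. Fits of only the compared groups passed 1 for KO at 4 weeks and 2 for age in WT, where 635 of 11996 and 606 of 12106 genes did. Leaving out single libraries gave 0 to 2 for KO over both ages, 0 to 1 at 4 weeks, 0 to 1 for VD3 and 4 to 8 for culture. Exchanging the conflicting labels, or leaving out both female libraries, passed 0 over both ages. At 10 weeks the exchange leaves 1 library of each genotype label on either side. Against 4-week WT alone, chosen after seeing the data, 4 passed for culture, where 5055 of all 12748 genes did.

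With the replicate block 1 member passed for KO at 4 weeks (Fscn1, edgeR adjusted p = 0.0122) and 1 over both ages (Fscn1, edgeR adjusted p = 0.00797), where Itgae did not (edgeR adjusted p = 0.0715). Of all 12748 genes 146 passed with the block at 4 weeks and 200 over both ages. Replicate numbers were not read as pairs in the main fit, since the labels do not state a pairing. Deviations of same-numbered libraries correlated at 0.122 at 10 weeks, -0.119 at 4 weeks and 0.272 in culture. Such correlations over all genes do not settle the matter for single genes. At 10 weeks the numbers go with title series and with sex, which the main fit did not model. Crossing the numbers at 4 weeks, chosen after seeing the data, passed 1 at 4 weeks and 4 over both ages, where 277 and 398 of all genes passed.

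Signs turned only for member differences that were not past the threshold, and the cause was not tested. Under the block the Ccr7 interaction was -0.0439. With single libraries left out, the interaction ran from -1.14 to 0.107 for Flt3, -0.586 to 1.10 for Zbtb46 and -1.06 to 0.747 for Ccr7. The age difference ran from -0.053 to 1.19 for Flt3 and -0.0294 to 1.66 for Zbtb46 in KO, and from -1.04 to 0.756 for Ccr7 and -0.791 to 0.607 for Fscn1 in WT. The VD3 difference ran from -1.04 to 0.545 for Ccr7, -1.82 to 0.367 for Fscn1, -0.169 to 1.09 for Xcr1, -0.153 to 0.38 for Itgae and -2.57 to 0.0861 for Flt3. With labels exchanged, KO at 10 weeks was 0.64 for Zbtb46, 0.777 for Ccr7 and 0.769 for Fscn1, the interaction 0.742 for Flt3 and 0.668 for Itgae, and age 1.09 for Ccr7 in KO and -0.062 for Zbtb46 in WT. Without the female libraries the Flt3 interaction was 0.0553. Of the other results, 749 kept sign and side, 28 came past the threshold and 37 lost it.

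Over all genes, calls ranged over the settings from 1 to 503 for KO at 10 weeks (main 14), 26 to 690 at 4 weeks (85), 24 to 791 over both ages (127), 5 to 392 for the interaction (24), 242 to 2059 for age in KO (1240), 58 to 1223 for age in WT (269), 545 to 1989 for VD3 (1356) and 4404 to 6007 for culture (5842). Over these settings the median of all genes moved by at most 0.03, the most when untreated culture replicate 1 was left out. With 0 to 10 counts a library for several members in culture, depth limits what those comparisons can show.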
